A study of Homo sapiens with 6 samples.

Results

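The genes described here encode the anchoring contact between a basal epithelial cell and the laminin-332 beneath it. There are 8 of them among the 52401 genes of the deposited table: COL17A1, ITGA6, ITGB4, DST, PLEC, LAMA3, LAMB3 and LAD1. The list was set by gene name, but with earlier results of these data known. They were measured in MCF10A cells, an immortalised, non-tumorigenic human mammary epithelial line with basal features. The flotillin group (MCF10AF1F2) stably co-expresses Flotillin1-HA and Flotillin2-mCherry from 2 retroviral vectors and was selected with puromycin and hygromycin. The mCherry group (MCF10AmCherry) stably expresses mCherry from 1 retroviral vector and was selected with puromycin. Both were grown in the same medium with horse serum, insulin, EGF, hydrocortisone and cholera toxin. Each group has 3 libraries of polyA RNA, and the labels name a single stable line for each, so that the raised flotillins, the second vector and hygromycin selection cannot be told apart.

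A hemidesmosome is the rivet-like junction by which a basal epithelial cell holds on to the basement membrane. Outside the cell, integrin α6β4 (the products of ITGA6 and ITGB4) and the transmembrane collagen XVII (COL17A1) bind laminin-332, a trimer that includes the chains encoded by LAMA3 and LAMB3. Inside it, plectin (PLEC) and the epithelial form of dystonin (DST, also known as BPAG1) tie the junction to keratin filaments, and ladinin 1 (LAD1) is associated with the anchoring filaments of the basement membrane zone. Basal mammary cells and the MCF10A line are known to make these proteins.

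Of the 7 members with an adjusted p in the authors' deposited table, 6 fell in flotillin cells and none rose, at an adjusted p under 0.05 over all genes. Across all 19733 genes tested there, 12.0% fell and 11.6% rose, 23.6% in all. The members that fell were LAD1, COL17A1, LAMA3, ITGA6, DST and LAMB3. ITGB4 did not pass the test, and PLEC has no p. Of the members that fell, ITGA6, DST and LAD1 have single-solution reads, and their libraries did not overlap between groups. Among 15916 genes with such reads 21.1% were lower and 24.2% higher without overlap. For COL17A1, LAMA3 and LAMB3 the mCherry reads were chosen among possible sets, and in 1 set each of LAMA3 and LAMB3 the groups overlap. In bulk RNA, fewer cells with a transcript and less transcript per cell cannot be told apart. The median log2 fold change over the 7 tested members was -2.82, against -0.04 over all genes tested. Falls ranged from 295-fold for LAD1 to 1.78-fold for LAMB3, so subunits of 1 integrin and of 1 laminin differed widely in how much transcript remained.

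The values per library below are normalized counts, that is, reads divided by a library's size factor. The authors deposited group means, and the whole reads behind them were solved for. The solution was the only one possible for 5 members. At means as high as those of ITGA6 in mCherry cells, ITGB4 and DST, it was not checked whether a wrong single solution can arise. For COL17A1, LAMA3 and LAMB3 several sets of mCherry reads fit the mean, and the set with the smallest spread was kept, for reasons given with the processing. Libraries are numbered within each group, and a number does not link libraries of different groups. The labels do not say whether libraries of a group were grown separately, so a p-value here measures spread among libraries that may be technical only.

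**Figure D1:**
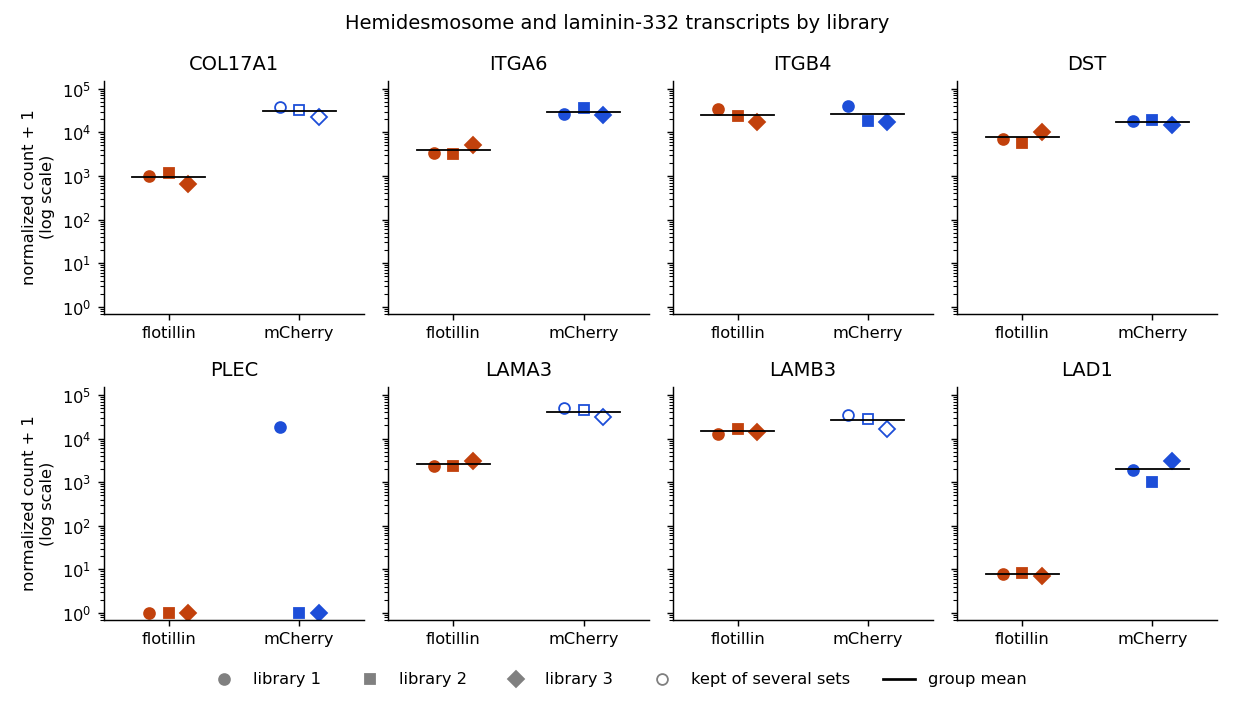
Normalized count plus 1 on a log axis for each member in the 3 flotillin libraries (left, orange) and the 3 mCherry libraries (right, blue), with the group mean as a bar except for PLEC. Open symbols are libraries kept from several possible sets of reads. LAD1, COL17A1, LAMA3 and ITGA6 lie far lower in flotillin libraries, while the ITGB4 groups overlap and PLEC is listed at 0 in 5 of 6 libraries.

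The receptor side of the junction was uneven. Positions in brackets, here and below, are bounds of the deposited locus (GRCh37), which can hold other genes and be wider than the named gene. ITGA6 encodes the α6 subunit that also pairs with β1 (chromosome 2, 173292082 to 173463862, a locus that holds 6 genes). It had normalized counts of 3350, 3161 and 5019 in flotillin libraries, against 26616, 35717 and 25575 in mCherry libraries. Every flotillin library lay below every mCherry library. The mean was 3844 ± 1022 in flotillin cells and 29303 ± 5579 in mCherry cells (SD, n = 3 each), 7.62-fold lower, and the authors' deposited table (DESeq2) lists -2.82 on the log2 scale with adjusted p = 3.60e-21. In limma on the recovered libraries the log2 difference was -2.95 ± 0.24 (SE; adjusted p = 0.000550).

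ITGB4, the β4 subunit found only in α6β4 (chromosome 17, 73717516 to 73753898), had normalized counts of 33733, 23532 and 17419 in flotillin libraries and 40876, 18491 and 17685 in mCherry libraries. The groups overlapped throughout, and library 1 was the highest in both. Mean counts were 24895 ± 8242 in flotillin cells and 25684 ± 13163 in mCherry cells (SD, n = 3 each). The log2 fold change of the authors' deposited table (DESeq2) was -0.04 (adjusted p = 0.952), and limma gave 0.02 ± 0.38 (SE; adjusted p = 0.978). The sign of this value turned under other scalings and with single libraries left out, and the difference was called in none of them.

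Within a library, the ITGA6 count was 0.0993, 0.134 and 0.288 of the ITGB4 count in flotillin libraries, against 0.651, 1.93 and 1.45 in mCherry libraries. The mean log2 ratio differed by -2.96, which is 7.79-fold lower, and the groups did not overlap. Since both genes are read in the same library, this ratio does not depend on how libraries are scaled. The exact two-sided permutation test gave p = 0.1, the smallest that 3 against 3 libraries allow (adjusted p = 0.1 over the 2 ratios tested). Leaving out any 1 library kept the log2 difference between -3.42 and -2.63.

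**Figure D2:**
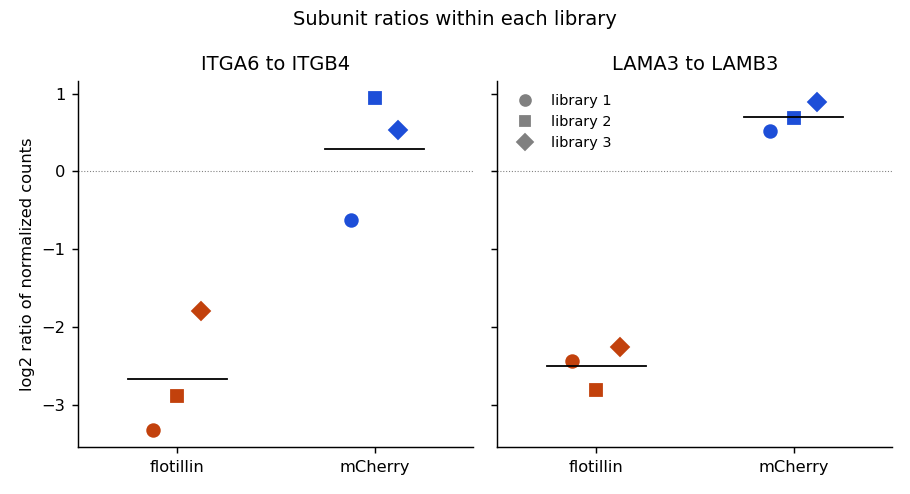
Log2 ratio of normalized counts within each library for ITGA6 to ITGB4 and for LAMA3 to LAMB3, flotillin libraries on the left and mCherry libraries on the right, with the group mean as a bar and a dotted line at equal counts. In both panels all 3 flotillin libraries lie below all 3 mCherry libraries. The mCherry LAMA3 and LAMB3 values come from kept reads.

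COL17A1, the transmembrane collagen that is also known as BP180 (chromosome 10, 105791044 to 105845760, overlapping hsa-mir-936), fell as well. It had normalized counts of 995, 1159 and 648 in flotillin libraries, against kept values of 38988, 32082 and 22048 in mCherry libraries. Group means were 934 ± 261 in flotillin cells and 31039 ± 8518 in mCherry cells (SD, n = 3 each), 33.2-fold lower. On the log2 scale the difference was -4.81, with adjusted p = 1.80e-48 in the authors' deposited table (DESeq2). Of the other possible reads in mCherry libraries, the lowest was 6449, which is also above every flotillin library, and with that set limma's adjusted p was 0.0213.

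CD151, a tetraspanin that binds laminin-binding integrins, was measured as a partner of the receptors. Its mean count was 5119 ± 714 in flotillin cells and 5841 ± 1778 in mCherry cells (SD, n = 3 each), and adjusted p = 0.699 in the authors' deposited table (DESeq2). The other laminin-binding and matrix-binding integrin genes listed, ITGA3 and ITGB1, did not pass the test either, with adjusted p = 0.789 and adjusted p = 0.403 in the authors' deposited table.

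DST and PLEC, the plakins that link the junction to keratin could not be described equally well. DST, dystonin (chromosome 6, 56322785 to 56819426), had normalized counts of 7126, 5715 and 10440 in flotillin libraries, against 17942, 19320 and 14644 in mCherry libraries. All flotillin libraries were lower, with library 3 the highest of its group. Mean counts were 7760 ± 2426 in flotillin cells and 17302 ± 2403 in mCherry cells (SD, n = 3 each), 2.23-fold lower. Its log2 fold change was -1.11, with adjusted p = 0.00150 in the authors' deposited table (DESeq2).

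The DST counts and FPKM (fragments scaled to transcript length and library depth, from the authors' Tuxedo table) gave similar sizes. FPKM was 44.8 in flotillin cells and 107 in mCherry cells, which left 41.8% of the mCherry level, against 44.9% by counts. The q-value of the Tuxedo table was 0.126, so its test did not call the gene. In limma the log2 difference was -1.19 ± 0.26 (SE; adjusted p = 0.0177), and without flotillin library 1 or 2, or mCherry library 1 or 2, the adjusted p lay between 0.0586 and 0.0758. The gene makes several isoforms from different promoters, and neither table separates the epithelial one.

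PLEC, plectin (chromosome 8, 144989321 to 145049543, in a locus with hsa-mir-661), is listed at 0 in all 3 flotillin libraries and in mCherry libraries 2 and 3, and at 18151 normalized counts in mCherry library 1. In FPKM it is listed at 0 in flotillin cells and 48.4 in mCherry cells, and the Tuxedo table marks its test as failed. Its log2 fold change in the authors' deposited table is -0.45, with no p. Since libraries of the same line differ this much and plectin is used widely in epithelial cells, no level and no change of PLEC is read from these values. Across all genes, 40 are likewise listed at 0 in a library beside at least 1000 normalized counts in another of the same group, 25 of them in flotillin cells and 22 in mCherry cells.

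Laminin-332 showed the same unevenness as the integrin. LAMA3, the α3 chain with the cell-binding domain (chromosome 18, 21269562 to 21535030), had normalized counts of 2375, 2345 and 2991 in flotillin libraries, against kept values of 48773, 44262 and 30747 in mCherry libraries. Mean counts were 2570 ± 364 in flotillin cells and 41261 ± 9380 in mCherry cells (SD, n = 3 each), 16.1-fold lower. The authors' deposited table (DESeq2) lists -3.87 on the log2 scale with adjusted p = 4.52e-45. With each of the 4 possible sets of mCherry reads in turn, limma's adjusted p lay between 0.000127 and 0.116, and in 1 of them the lowest mCherry value, 2708, was under the highest flotillin value.

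LAMB3, the β3 chain (chromosome 1, 209788220 to 209825820), had normalized counts of 12877, 16460 and 14329 in flotillin libraries, against kept values of 33871, 27372 and 16590 in mCherry libraries. With these kept reads the highest flotillin library lay just under the lowest mCherry library. With the other possible set, 1332, 4039 and 72462, mCherry libraries 1 and 2 lay below every flotillin library and limma's log2 difference turned to 0.99 (adjusted p = 0.639). Mean counts were 14555 ± 1802 in flotillin cells and 25944 ± 8729 in mCherry cells (SD, n = 3 each), 1.78-fold lower. Its log2 fold change was -0.80, with adjusted p = 0.0417 in the authors' deposited table (DESeq2), close to the threshold, the Tuxedo table gives q = 0.0537, and limma with the kept reads gave an adjusted p of 0.0810. Without library 3 of both groups limma gave -1.06 with an adjusted p of 0.00301, and without mCherry library 3 alone 0.00829. That library is the lowest of the kept mCherry values. In both settings limma's calls over all genes rose too, from 1773 lower and 1953 higher with all libraries. They became 3270 lower and 3770 higher without library 3 of both groups, and 2910 lower and 3505 higher without mCherry library 3. Without any other single library limma's adjusted p lay between 0.146 and 0.223, with a log2 difference of -0.56 without mCherry library 1.

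By counts LAMA3 kept 6.23% of its mCherry level and LAMB3 56.1%, from group means that need no choice of reads.

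Within a library the LAMA3 count was 0.184, 0.142 and 0.209 of the LAMB3 count in flotillin libraries, against 1.44, 1.62 and 1.85 in mCherry libraries from the kept reads. LAMB3 outnumbered LAMA3 in each flotillin library and LAMA3 outnumbered LAMB3 in each mCherry library, as counts, which also depend on transcript length. This rests on the kept reads, whereas the shares of the group means above do not. Over the 8 combinations of possible reads the log2 difference lay between -4.97 and -2.23, with exact permutation p from 0.1 to 0.4, and in 3 of them the groups overlapped. The mean log2 ratio differed by -3.21, which is 9.23-fold lower (exact two-sided permutation p = 0.1, the smallest possible, adjusted p = 0.1). Per length, FPKM was 14.8 for LAMA3 and 198 for LAMB3 in flotillin cells, against 283 for LAMA3 and 363 for LAMB3 in mCherry cells.

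LAD1, ladinin 1 (chromosome 1, 201328136 to 201368736, in a locus with TNNT2), was listed at few reads in flotillin libraries. Its normalized counts were 7.0, 7.09 and 6.17 in flotillin libraries, against 1900, 992 and 3082 in mCherry libraries. The mCherry libraries spread about their mean by an SD of 1048 while the flotillin libraries differed by about 1 read. Mean counts were 6.75 ± 0.51 in flotillin cells and 1991 ± 1048 in mCherry cells (SD, n = 3 each), 295-fold lower. Its log2 fold change of -7.27 ranks 5 among all falls of the authors' deposited table (adjusted p = 5.19e-56, DESeq2), and limma gave -7.86 ± 0.41 (SE; adjusted p = 8.39e-05).

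Most members were among the highest tested genes of the mCherry line. In mCherry cells, COL17A1, ITGA6, ITGB4, LAMA3, LAMB3 and DST lay between the 99.3 and 99.8 percentiles of the 19733 tested genes by mean count. LAD1 was lower, at the 86.6 percentile. Among the same tested genes in flotillin cells, ITGB4 stayed at the 99.6 percentile and LAMB3 at 99.0, whereas COL17A1 was at 72.5 and LAD1 at 16.9.

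**Figure D3:**
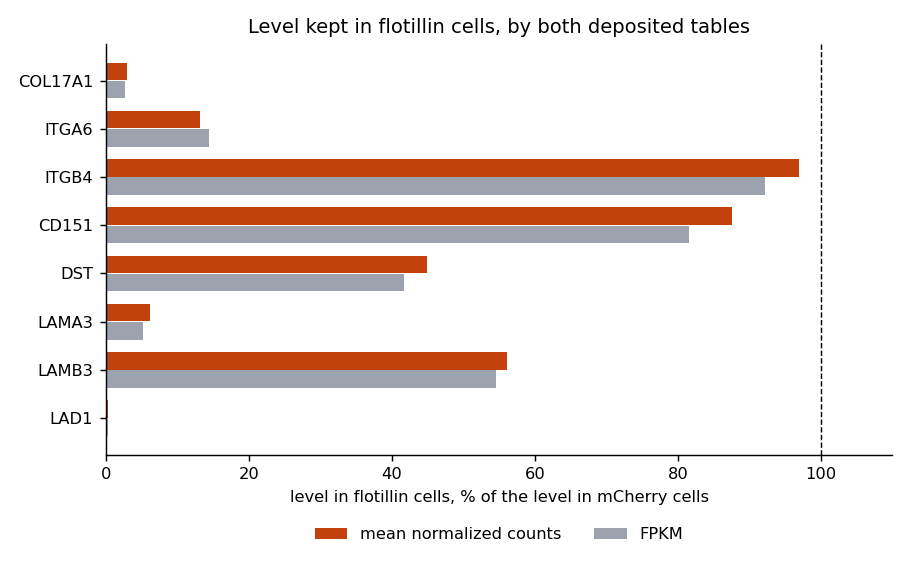
Level in flotillin cells as a percent of that in mCherry cells for 7 members and for CD151, from mean normalized counts (orange) and from FPKM (grey), with a dashed line at equal levels. ITGB4 keeps 96.9% by counts and 92.2% by FPKM, while COL17A1 keeps 3.01% and 2.69% and LAD1 0.339% and 0.351%.

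Counts and FPKM gave similar shares for the 7 members with values in both. The log2 shift of counts per FPKM, flotillin over mCherry, ran from -0.13 for ITGA6 to 0.25 for LAMA3, against -0.18 to 0.34 for the 5 to 95% range of 16326 genes. By FPKM the kept levels were 14.4% for ITGA6, 5.23% for LAMA3 and 54.5% for LAMB3. The Tuxedo table tested 7 members and called COL17A1, ITGA6, LAMA3 and LAD1 lower, each with q = 0.000804, where 10.0% of its 17022 tested genes were lower and 6.93% higher.

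**Figure D4:**
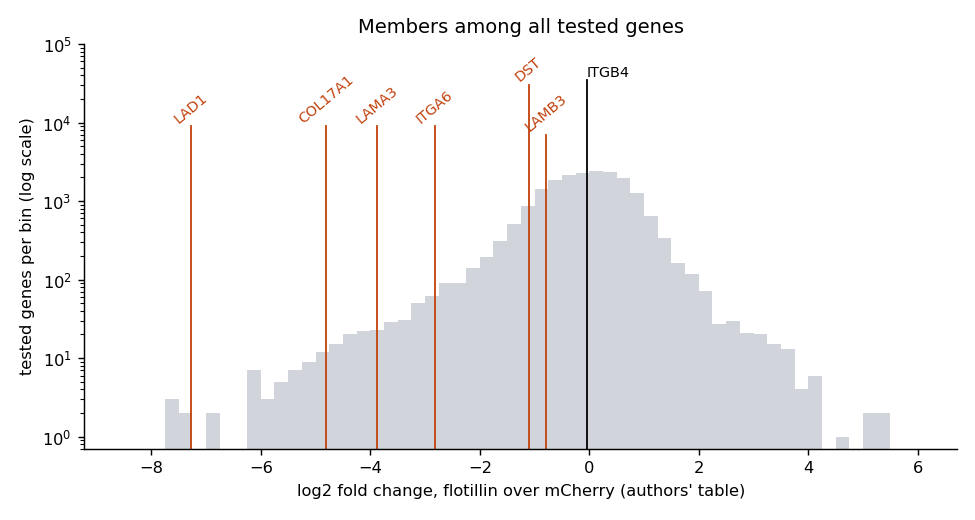
Number of tested genes per bin of log2 fold change on a log axis, with the 7 tested members as vertical lines, orange where the adjusted p was under 0.05 and black for ITGB4. LAD1, COL17A1, LAMA3 and ITGA6 lie in the left tail, DST and LAMB3 at its shoulder and ITGB4 at the centre.

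The promoters of these members were read from RefSeq (GRCh38.p14, a later build than the GRCh37 of the tables), as the 250 bases before each listed start. Of the 8 members 6 were read, with 11 starts in all. ITGB4 had no entry, and PLEC was left out of the search. The motif of AP-1 factors (TGANTCA) was searched together with the E-box bound by SNAI and ZEB factors (CAGGTG) and the p53-family core motif, all on both strands, since these families of factors are known regulators of epithelial genes and TP63 belongs to the p53 family. They occur in 6.57%, 17.5% and 0.296% of 35116 promoters of the same length. Counted in the same way per promoter, 2 of the members' 11 starts held an AP-1 match, 4 an E-box match and 0 the p53-family pattern. At a share of 0.296% a match in 11 starts was unlikely beforehand, so this 0 does not show whether the members have sites for TP63. The 4 sequences below are shown because they carry matches, which stand in capitals. LAMB3 has a further E-box match at its listed start 1, which is not printed. In LAMA3 an E-box match overlaps an AP-1 match.
LAMA3 promoter, chr18:23872770-23873019, plus strand: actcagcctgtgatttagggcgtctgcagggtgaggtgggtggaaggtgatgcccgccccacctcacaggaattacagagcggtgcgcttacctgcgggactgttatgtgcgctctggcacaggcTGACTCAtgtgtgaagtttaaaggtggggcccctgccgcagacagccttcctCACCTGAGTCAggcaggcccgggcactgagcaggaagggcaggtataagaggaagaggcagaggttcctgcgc
LAMB3 promoter (listed start 3), chr1:209651375-209651624, minus strand: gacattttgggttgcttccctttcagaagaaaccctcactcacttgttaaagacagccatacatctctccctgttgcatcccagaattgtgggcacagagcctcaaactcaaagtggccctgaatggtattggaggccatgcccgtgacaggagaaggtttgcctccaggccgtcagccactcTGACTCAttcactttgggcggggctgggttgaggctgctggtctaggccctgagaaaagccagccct
ITGA6 promoter (listed start 1), chr2:172427086-172427335, plus strand: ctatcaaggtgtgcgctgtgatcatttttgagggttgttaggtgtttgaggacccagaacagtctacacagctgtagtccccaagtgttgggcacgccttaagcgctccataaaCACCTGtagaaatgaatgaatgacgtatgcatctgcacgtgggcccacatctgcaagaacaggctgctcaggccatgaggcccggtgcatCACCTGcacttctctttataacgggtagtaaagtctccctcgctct
LAD1 promoter, chr1:201399325-201399574, minus strand: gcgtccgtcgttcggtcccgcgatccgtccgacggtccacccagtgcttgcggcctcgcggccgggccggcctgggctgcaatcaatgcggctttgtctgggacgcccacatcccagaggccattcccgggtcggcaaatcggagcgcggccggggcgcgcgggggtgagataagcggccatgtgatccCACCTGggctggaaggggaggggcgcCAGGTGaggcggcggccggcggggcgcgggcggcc

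The LAMA3 matches lie 118 and 62 bases before the start for AP-1 and 67 for the E-box, and the AP-1 match of LAMB3 lies 60 bases before its start 3. ITGA6 has E-box matches 130 and 40 bases before its start 1, and LAD1 has them 55 and 29 bases before. The base composition varied widely, from 37.6% G and C at start 3 of DST to 82.8% at its start 1, with 40.4% in COL17A1 and 74.4% in LAD1, against a median of 58% over all promoters. LAD1 and ITGA6 hold E-box matches and no AP-1 match, and COL17A1 and all 3 starts of DST hold none of the 3 motifs. A match describes letters only, and which start these cells use was not measured here.

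TP63, the transcription factor of the basal lineage, was read beside the members. It had normalized counts of 30, 36.5 and 10.3 in flotillin libraries, against 2053, 1964 and 1278 in mCherry libraries, 69.0-fold lower, and adjusted p = 3.66e-44 in the authors' deposited table (DESeq2). Of the 13 epithelial transcription factors listed, 8 fell and none rose, with a median log2 fold change of -2.70. ELF3, an ETS factor of epithelia, was 91.3-fold lower (adjusted p = 1.18e-59, DESeq2). OVOL1, a zinc finger factor of epithelia, had normalized counts of 0, 1.01 and 0 in flotillin libraries, against 81.6, 17.2 and 177 in mCherry libraries (adjusted p = 5.89e-11, DESeq2). In the Tuxedo table q was 0.328 for ELF3 and 0.356 for OVOL1, and 4 of the 12 factors tested there were lower.

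Of 12 hemidesmosome partners and basement membrane zone genes 5 fell and none rose, with a median of -0.46. FRAS1, an extracellular matrix protein of epithelial basement membranes, was 9.15-fold lower (adjusted p = 1.05e-10, DESeq2) and had normalized counts of 92.0, 64.9 and 224 in flotillin libraries, against 1181, 1367 and 939 in mCherry libraries. FREM2, a related matrix protein, was 10.3-fold lower at low counts (adjusted p = 7.83e-05, DESeq2), with q = 1 in the Tuxedo table. MST1R, a receptor tyrosine kinase also called RON, was 6.19-fold lower (adjusted p = 3.54e-20, DESeq2). COL7A1, the anchoring fibril collagen, did not pass the test (adjusted p = 0.891, DESeq2).

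KRT5 and KRT14 encode the basal keratin pair to which these junctions attach. KRT5 had mean counts of 67351 in flotillin cells and 48381 in mCherry cells, and adjusted p = 0.240 in the authors' deposited table (DESeq2). KRT14 was 4.83-fold lower (adjusted p = 0.00704, DESeq2), at 259 ± 157 normalized counts in flotillin cells and 1249 ± 1232 in mCherry cells (SD, n = 3 each). The KRT14 libraries overlapped, with 430 in flotillin library 2 and 287 in mCherry library 2.

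Among 8 other plakins and their partners 3 fell and 1 rose, with a median of -0.28. DSP, desmoplakin of the desmosome, was 4.64-fold lower (adjusted p = 1.44e-24, DESeq2). EVPL, envoplakin, was 2.19-fold lower (adjusted p = 0.00283, DESeq2), and MACF1, which crosslinks actin and microtubules and is related to dystonin, 2.23-fold lower (adjusted p = 0.0212, DESeq2). In the Tuxedo table q was 0.445 for EVPL and 0.530 for MACF1. Of the 9 other laminin chains only LAMB1 fell, 3.01-fold (adjusted p = 0.00590, DESeq2), and its Tuxedo q was 0.0914.

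Of 11 genes of proteases that can cleave laminin-332 or collagen XVII, 7 fell and 1 rose, with a median of -0.98. MMP2, gelatinase A, was 10.9-fold higher (adjusted p = 7.51e-12, DESeq2), with 1921 ± 592 normalized counts in flotillin cells and 176 ± 109 in mCherry cells (SD, n = 3 each). PLAT, the tissue plasminogen activator, was 4.17-fold lower (adjusted p = 9.31e-08, DESeq2), and TLL1, a tolloid-like metalloprotease, 4.62-fold lower (adjusted p = 0.000485, DESeq2).

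**Figure D5:**
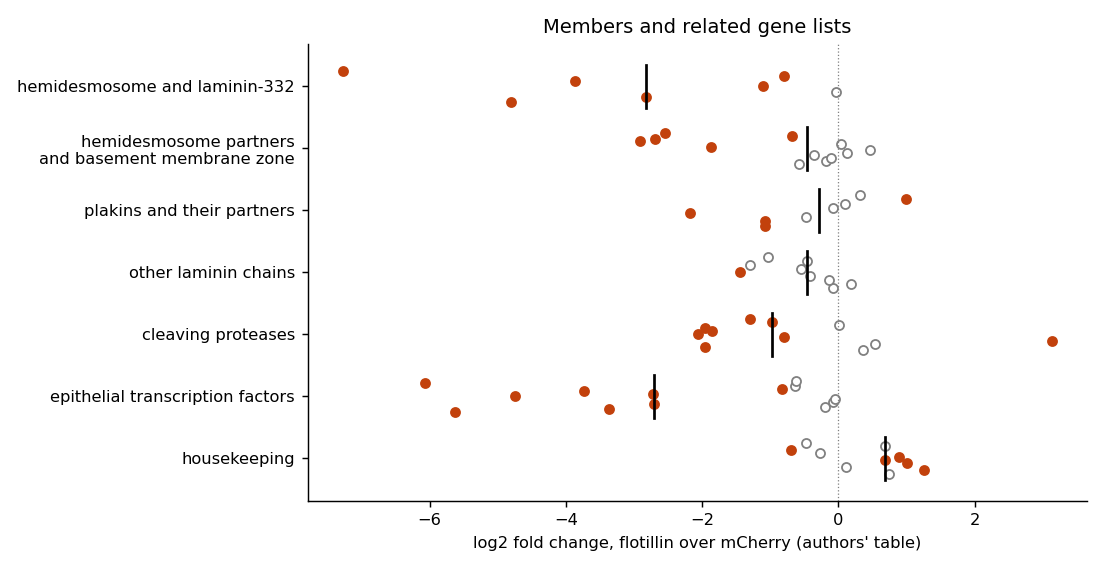
Authors' log2 fold change, flotillin over mCherry, for each tested gene of the members and of 6 lists, filled orange where the adjusted p was under 0.05 and open grey otherwise, with the list's median as a black bar. The members and the epithelial transcription factors have the lowest medians, -2.82 and -2.70, and housekeeping genes lie at 0.68.

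The libraries carry the labelled change: FLOT1 had a log2 fold change of 3.38 and FLOT2 of 3.35 in the authors' deposited table, both higher in flotillin cells. Of 10 housekeeping genes 4 rose and 1 fell, led by GAPDH (2.54-fold higher), HPRT1 (2.12-fold) and RPLP0 (1.88-fold), and the values given for ITGB4 hold on the scale of the size factors. Of 6 mammary epithelial markers 2 fell and none rose: CDH1 had 79 counts in flotillin cells against 17575 in mCherry cells, and EPCAM 81 in flotillin cells against 4607 in mCherry cells. KRT7 had 30007 in flotillin and 18335 in mCherry cells and KRT8 3494 in flotillin and 2043 in mCherry cells, neither passing the test. KRT18 is listed at 0 in both, and the summed counts of the list were 33694 in flotillin and 42604 in mCherry cells. The 8 basal markers summed to 69437 in flotillin and 65187 in mCherry cells, with KRT5 the bulk of both, and 3 of the list fell and 1 rose. KRT17, a basal keratin, fell to 693 in flotillin cells, against 13306 in mCherry cells, along with TP63 and KRT14, and the smooth muscle actin gene ACTA2 rose to 1045 in flotillin cells, against 412 in mCherry cells. Fibroblast markers summed to 42694 in flotillin and 4967 in mCherry cells, of which DCN alone held 42467 in flotillin and 4659 in mCherry cells. Of the 8 in that list 3 rose (DCN, PDGFRB and LUM) and 1 fell. The one that fell was COL1A1, at 88 in flotillin and 268 in mCherry cells, and THY1 was at 0. The immune marker CD3E was at 0, and the immune list summed to 1431 in flotillin and 1505 in mCherry cells. Within it CD14 fell, with 118 in flotillin and 743 in mCherry cells. CD68 had 1309 in flotillin and 753 in mCherry cells and did not pass the test. Endothelial markers summed to 627 in flotillin and 696 in mCherry cells. Whether these levels bear on the falls of the members was not tested.

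Library 3 differed from the others of its group in several members. Set against the mean of the other libraries of its group on the log2 scale, flotillin library 3 stood at 0.62 for ITGA6, 0.70 for DST, -0.73 for COL17A1 and -0.72 for ITGB4. The corresponding values for mCherry library 3 were -0.29 for ITGA6, -0.35 for DST, -0.69 for COL17A1, -0.75 for ITGB4 and 1.09 for LAD1. Without library 3 of both groups, limma on recovered and kept reads called 6 members lower, all but ITGB4 and PLEC. With all libraries limma on the same reads called 5, leaving out LAMB3 (adjusted p = 0.0810). Calls over all genes with single-solution reads rose as well. They went from 1773 lower and 1953 higher with all libraries to 3270 lower and 3770 higher without library 3 of both groups. The authors' test called the 6 with all libraries. Of the genes measured, those with the profile over the 6 libraries most like the mean of ITGA6, ITGB4, DST and LAD1 were PTAFR, GPR56, SLC2A9, VARSL and CCNJL, with r from 0.997 to 0.998. In that mean LAD1 weighs most, as its difference between groups is the largest (limma log2 -7.86). With PLEC included they were PPP1R13L, CTSA, ZFYVE19, CACNB3 and MMP14, with Pearson's r from 0.987 to 0.995 over 6 libraries. That mean is shaped largely by the 18151 listed for PLEC in mCherry library 1, so these genes are not read as like the members. Both are given as a description among 11382 genes that share the same libraries.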

How the data were processed

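PolyA RNA of 6 libraries (TruSeq stranded kit, HiSeq sequencer, per the labels' protocols), 3 per group, was compared. The authors deposited a table of group means of size-factor-normalized read counts, a signal per group, with their log2 fold changes, p-values and adjusted p-values, per the file headers. The submitters' processing notes name GRCh37, HISAT2 2.1.0, HTSeq 0.9.1 and DESeq2 1.18.1. Whether reads were counted by strand is not given. The authors' Tuxedo table holds FPKM per group, log2 fold changes, a test score, p-values and q-values, per the file headers; its status and locus columns were used too.

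Each mean has 15 significant digits, so the whole reads of the 3 libraries behind it were solved for. A single solution was found for 99.8% of flotillin means above 0 and 99.7% of mCherry means above 0; 65 flotillin and 68 mCherry means had several. Altered means, drawn from lower means only, were solved in 0% of 2000 trials per group. Reads simulated from single-solution genes came back exactly in 100% and 99.97% of 3000. Of 400 simulated high means per group, 83.25% in flotillin and 76.75% in mCherry had a single solution, and 100% of those were exact. As each was built from whole reads with the same size factors, a single solution had to be exact. Whether a wrong single solution can arise at high means was therefore not checked. ITGA6 in mCherry cells and ITGB4 in both groups lie above the lowest means with several solutions, 24285 in flotillin and 21062 in mCherry. Means without a single solution hold 17.2% of flotillin and 19.1% of mCherry normalized counts. Solved genes hold 19371842 to 20369067 reads per flotillin library and 20157885 to 20512050 per mCherry library. Libraries are numbered by falling size factor, not by the labels' replicate numbers.

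COL17A1, LAMA3 and LAMB3 had 2, 4 and 2 possible sets of mCherry reads. The set kept has a spread (CV) of 27.4%, 22.7% and 33.6%, and the others at least 131%, 72.8% and 155%. The authors' implied standard errors for these genes were 0.318, 0.266 and 0.306, below the lowest, 0.438, of 16 comparable genes with a CV of 70% or more. As they were kept for a small spread, their SDs and limma results are descriptions.

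Genes rose or fell at an adjusted p under 0.05 in the authors' table of means, which is the main test. limma 3.58.1 (R 4.3.3, trend, robust, Benjamini-Hochberg) was run on log2(normalized count + 1) of 15916 genes with a mean of at least 10. In data of that size, simulated with 1 dispersion of 0.05 for all genes, it recovered 38% of 100 genes changed 2-fold and 95% of 100 changed 4-fold. False calls were 5%. The libraries here can spread more, with an mCherry CV of 51.3% for ITGB4 and 52.6% for LAD1, so these rates need not hold for them. Python 3.11.15 was used with scipy 1.17.1, pandas 2.3.3, numpy 2.4.6, statsmodels 0.14.6 and matplotlib 3.10.9. Named genes were the members, CD151, TP63, FLOT1 and FLOT2, the 3 called genes of each list with the largest log2 fold change and a group mean of at least 50, and the 5 genes most alike in profile; others (KRT5, KRT14, COL7A1, ITGA3, ITGB1 and the markers) were named after their values were seen. Some items that the rule or the lists hold are not reported here. Members and lists were chosen with earlier results of these data known.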

Additional observations from a re-analysis of the deposited data

How the results depend on the processing

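The member counts depended on the table and the reads used. The 6 members called lower were 4 in the Tuxedo table, 5 at an adjusted p under 0.01, 5 with a log2 fold change of at least 1 and 6 with a group mean of at least 100. Over all genes, 2363 fell and 2298 rose. The Tuxedo table called 1705 lower and 1180 higher, and an adjusted p under 0.01 left 1561 lower and 1317 higher. With a larger group mean of at least 100, 1886 genes fell and 2148 rose. Whether called or not, 2487 of the 19733 tested genes had a log2 fold change of -1 or lower. In limma on single-solution reads, which only 5 members have, 3 members were lower. Of all 15916 genes in that fit 11.1% were lower and 12.3% higher. With the kept reads of COL17A1, LAMA3 and LAMB3 added, chosen after seeing the data, 5 members were lower, and 6 without library 3 of both groups. Leaving out 1 library gave 2 to 3 members with single-solution reads and 4 to 6 with kept reads. The ratio differences lay between -3.42 and -2.63 for ITGA6 to ITGB4 and, with the kept reads, between -3.33 and -3.05 for LAMA3 to LAMB3; over all possible reads the second lay between -4.97 and -2.23. limma's calls over all genes, 1773 lower and 1953 higher, became 3270 lower and 3770 higher without library 3 of both groups. With 1 library left out they ran from 645 lower and 356 higher, without flotillin library 1, to 2910 lower and 3505 higher, without mCherry library 3. The cause was not tested. With its other possible reads limma's log2 difference for LAMB3 turned to 0.99 (adjusted p = 0.639). On log2(FPKM + 1) LAD1 fell by 5.71. The Tuxedo table called lower 3 hemidesmosome partners, 1 plakin, 0 other laminins, 4 epithelial factors and 0 housekeeping genes. A count model (edgeR, DESeq2) was not run on the recovered reads, and PLEC gives no value without mCherry library 1. No paired analysis was possible because the deposited columns are group means whose recovered libraries carry no replicate numbers. Reads of the highest genes cannot be separated, which limits the precision for COL17A1, LAMA3 and LAMB3.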

Other observations

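PLEC was 1 of 40 genes listed at 0 in at least 1 library beside 1000 or more normalized counts in another of the same group, and 7 of them were so in both groups. FLNA, the actin crosslinker filamin A, was at 0, 14954 and 0 in flotillin libraries. CD59, a complement inhibitor, was at 22831, 29930 and 0 in flotillin libraries, and CTSB, cathepsin B, at 0, 17528 and 20661. In mCherry libraries FAT2, a large cadherin, was at 15660, 0 and 11981, and CAPNS1, the calpain small subunit, at 3871, 0 and 0. Of all genes with reads, 29 have no p in the authors' deposited table.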
